A study of Bos taurus with 2 samples.

Results

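The insulin-like growth factor (IGF) system was examined in the *longissimus thoracis* (LT) muscle of fetal calves through 10 genes, namely the ligands *IGF1* and *IGF2*, the receptors *IGF1R* and *IGF2R*, and the binding proteins *IGFBP2* to *IGFBP7*. A probe was taken when its accession on the array belonged to one of these symbols, without regard to its signal. This gave 33 of the 43652 probes used, and 10 of the 12603 genes that could be named in this way. The HN pool held LT total RNA of 4 Japanese Black fetuses whose dams received 120% of the nutritional requirement, those of highest bodyweight, and the LN pool that of 4 fetuses whose dams received 60%, those of lowest bodyweight. All fetuses were taken at 8.5 months of gestation and came from male-sorted semen of a single sire. Each pool was hybridized to 1 Agilent Bovine (v2) array of the same slide. Diet and the choice of fetuses by bodyweight therefore cannot be told apart. With a single measurement of each pool the groups were not tested against each other, and how far individual fetuses varied is unknown.

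IGF1 and IGF2 are secreted peptides that promote the proliferation and differentiation of myoblasts and the growth of muscle fibres. Both act through IGF1R, a receptor tyrosine kinase, whereas IGF2R takes up IGF2 and delivers it to the lysosome. The binding proteins hold IGFs in the circulation and in the extracellular matrix and control their access to the receptor, and IGF2 is the ligand most associated with fetal growth.

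Values are given as the signal of a probe, which is the background-corrected intensity as deposited, and as log2 LN/HN, which is the difference of the log2 signals after quantile normalization. A negative log2 LN/HN is a lower signal in the LN pool. A gene has the mean log2 LN/HN of its probes. Signals of different probes are not comparable as amounts of mRNA. Among spots that are not controls, the share well above background was 74.5% (HN array) and 70.9% (LN array), and no spot was saturated. The SD of log2 LN/HN between spots of the same probe was 0.086 (42 probes printed in several spots), so that 95% of such ratios of a single spot lie within 0.17 of 0. Their log2 signal had a median of 8.30, and for dimmer probes this error may not apply. The error estimate of the scanner software was wider, with a median of 0.20 on the log2 scale (1 SD) for the ratio of a member probe, which gives a 95% limit of 0.40 or more. None of the 31 member probes measured on both arrays lay outside this wider limit. Neither error covers the variation between animals.

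All 33 probes were well above background on at least 1 array and 31 of them on both. The log2 LN/HN was positive in 21 probes, 10 of them of *IGF2*, and negative in 12. Of these 12, the 2 of *IGFBP2* are limits set for probes dim on the LN array. By gene, 5 of the 9 members measured on both arrays were higher and 4 lower. Of all 19554 genes with a value, 9636 were higher and 9906 lower. In 16 of the 31 probes measured on both arrays the log2 LN/HN lay within the 95% limit of the repeat spots. None of the 9 genes measured on both arrays differed 2-fold, against 0.997% of the 19554 genes with a value on the array. Past 1.25-fold (a log2 LN/HN of 0.32 in either direction) there was 1 of these 9, *IGFBP5*, which had the lower signal in the LN pool. For *IGFBP2* only a limit of the change is known, so that neither fold can be judged. Over the whole array 18.0% of genes were past 1.25-fold, with 8.85% higher and 9.11% lower. With only probes well above background on both arrays it was 16.1% of 18800 genes. The share among the 9 members was above neither. The higher and lower calls over all genes numbered 1731 and 1781, but 1191 and 2693 with the arrays scaled by their 75th percentile and 1462 and 2260 without normalization. Among the probes, 4 of 33 were past 1.25-fold, 1 of them by the limit of *IGFBP2*, against 18.6% of all probes with a value. The median log2 LN/HN of the 10 genes was 0.01, that of the 9 measured on both arrays was 0.08, and that of all genes was -0.0033.

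**Figure D1:**
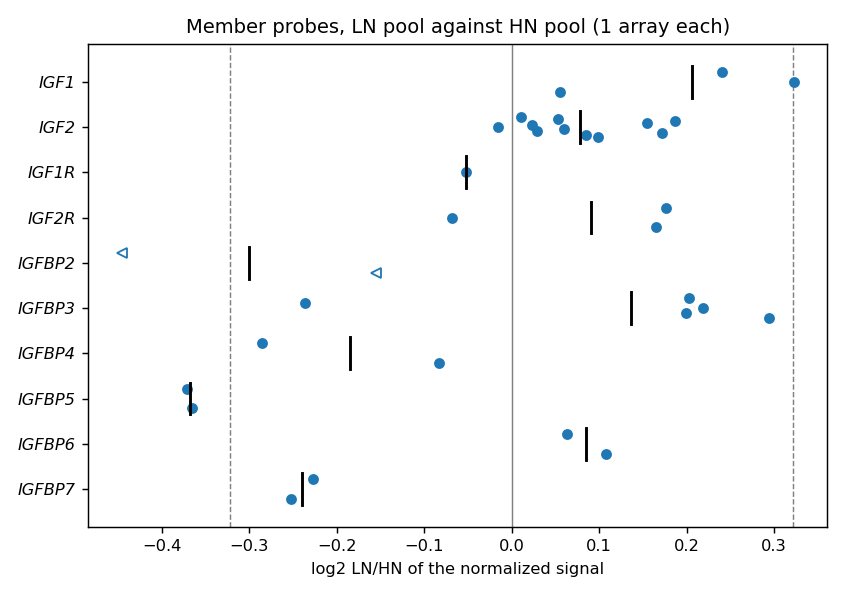
Log2 LN/HN of each member probe (points, x axis) by gene (rows), with the gene's mean as a vertical bar and the 1.25-fold limits as dashed lines. Open triangles are *IGFBP2* probes that were dim on the LN array and give a limit of the change. Both *IGFBP5* probes lie beyond the lower limit, while the 11 probes of *IGF2* lie between -0.02 and 0.19.

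The ligands differed little between the pools. *IGF2* has 11 probes, and its log2 LN/HN was 0.08 ± 0.07 (SD over probes of the same arrays), with 10 probes above 0. Its probes fell into groups of 6 and 5 by signal. The 6 dimmer probes had signals of 11785 to 54786 in the HN pool and 12774 to 61480 in the LN pool, and log2 LN/HN values of 0.03 to 0.19. The 5 brighter probes had signals of 137306 to 244279 in the HN pool and 134896 to 246305 in the LN pool, and values of -0.02 to 0.09. The mean was thus 0.12 in the dimmer and 0.03 in the brighter probes. Without normalization the groups did not overlap, with 0.03 to 0.18 in the dimmer probes and -0.03 to 0.01 in the brighter probes. The part of the signal level in this difference was not tested. Of all genes on the array, 69.0% had a larger change than *IGF2*.

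*IGF1* was higher in the LN pool with each of its 3 probes. The signal was 74.3 (HN pool) and 87.3 (LN pool) with 1 probe (log2 LN/HN 0.24), and 489 and 523 with the brightest (0.05). The dimmest probe gave 32.5 and 39.1 (0.32), just past 1.25-fold. The change was larger in the dimmer probes, and only the brightest lay within the limit of the repeat spots. The gene had a log2 LN/HN of 0.21 ± 0.14 (SD over probes), or 1.15-fold, and 33.8% of all genes had a larger change. With the brightest probe alone it was 0.05, and after the normexp background correction, which adds an offset of 50 to each signal, it was 0.08.

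The receptors also differed by little. *IGF1R* has a single matched probe, with a signal of 55.8 (HN pool) and 53.2 (LN pool) and a log2 LN/HN of -0.05, within the limit of the repeat spots. It was 0.04 after the normexp background correction, which leaves this gene without a direction. *IGF2R*, also known as the cation-independent mannose 6-phosphate receptor, had a log2 LN/HN of 0.09 ± 0.14 (SD over 3 probes). Its brightest probe had signals of 9348 and 10797 in the HN and LN pools (0.18), and the others gave 0.17 and -0.07. The probes of this gene thus did not share a direction.

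Of the 9 members measured on both arrays, *IGFBP5* and *IGFBP7* had the largest differences. *IGFBP5*, which binds to the extracellular matrix and is expressed during the differentiation of myoblasts, was lower in the LN pool. Its signal was 1634 (HN pool) and 1305 (LN pool) with 1 probe (log2 LN/HN -0.37), and 364 and 287 with the other (-0.37). The probes differed from each other by 0.0064, whereas the median difference was 0.12 over the 4005 genes with 2 probes measured on both arrays. The gene was 1.29-fold lower (log2 LN/HN -0.37), and 14.2% of all genes had a larger change. Both probes lay outside the limit of the repeat spots and within the 95% limit of the software error. After the normexp background correction it was -0.30, short of 1.25-fold, while 3.60% of all genes were past that fold under this correction.

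*IGFBP7*, which binds IGFs weakly and is abundant in the wall of blood vessels, was also lower in the LN pool. Its signals were 36908 (HN pool) and 30949 (LN pool) with 1 probe (log2 LN/HN -0.23), and 30943 and 25670 with the other (-0.25). Both differences lay outside the limit of the repeat spots, within that of the software error, and short of 1.25-fold. The log2 LN/HN of the gene was -0.24, a 1.18-fold difference, and 27.9% of all genes had a larger change.

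*IGFBP4*, known as an inhibitor of IGF action whose cleavage releases the ligand, had signals of 610 and 516 in the HN and LN pools with 1 probe (log2 LN/HN -0.29). The brighter probe had 4173 and 4048 (-0.08), within the limit of the repeat spots. The direction was the same in both, but the size rested on the dimmer probe, and the mean of -0.18 became -0.08 with the brighter probe alone.

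*IGFBP2*, a binding protein abundant in fetal tissues, was close to the background in this muscle. Its signals were 10.1 (HN pool) and 5.25 (LN pool) with 1 probe and 8.34 and 5.78 with the other, and neither was well above background on the LN array. The LN side was therefore set to the lowest signal that passed this mark on the LN array (log2 2.82). This gave log2 LN/HN limits of -0.45 and -0.16, and a gene value of -0.30 or at least 1.23-fold lower. The direction follows from the rule, because every probe that is dim on the LN array alone and has a value is lower there. Of the 1063 such probes on the array, 473 were past 1.25-fold. With the measured signals in place of the limit, the log2 LN/HN of *IGFBP2* was -0.55, and after the normexp background correction it was -0.022.

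*IGFBP3*, the main carrier of IGFs in the circulation, had signals of 3330 (HN pool) and 3995 (LN pool) with its brightest probe (log2 LN/HN 0.22). Of the other 4 probes, 3 gave 0.20, 0.20 and 0.29. The dimmest had signals of 45.9 and 37.9 and gave -0.24, opposite to the rest. The mean of the 5 probes was 0.14 ± 0.21 (SD), and it was 0.23 without the dimmest probe, an alternative chosen after its value had been seen. *IGFBP6*, which prefers IGF2 over IGF1, was nearly the same in both pools, with signals of 20484 and 21385 (0.06) and of 4179 and 4619 (0.11). Both of its probes lay within the limit of the repeat spots.

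**Figure D2:**
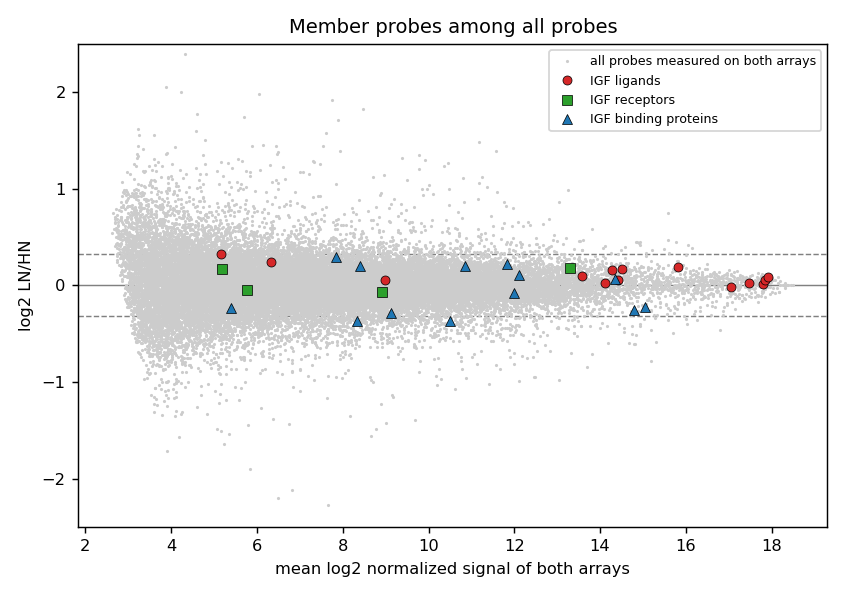
Log2 LN/HN (y axis) against the mean log2 normalized signal of both arrays (x axis) for all probes measured on both arrays (grey) and for the 31 member probes so measured (ligands as circles, receptors as squares, binding proteins as triangles); dashed lines mark 1.25-fold. The member probes lie within the cloud of all probes, with *IGF2* at the bright end close to 0 and both *IGFBP5* probes at -0.37.

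Among the 4 member genes with 2 probes measured on both arrays (*IGFBP4* to *IGFBP7*), the probes shared a direction in all 4, against 68.8% of all such genes. Over the 8 member genes with 2 or more such probes it was 5, or 62.5%, against 59.0% of all such genes. Of the 5 binding proteins measured on both arrays, 3 were lower and 2 higher in the LN pool.

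The rest of the pathway was taken from lists of 27 genes covering other IGF family genes, proteases of binding proteins and their inhibitors, receptor adaptors, the growth hormone axis and IGF2 mRNA-binding proteins. A value was obtained for 16 genes, of which 11 were higher and 5 lower, with 5 past 1.25-fold higher and 1 lower. Of all 19554 genes with a value, 9636 were higher and 9906 lower. Past 1.25-fold were 18.0% of them, with 8.85% higher and 9.11% lower. The 6 pathway genes past this fold became 4 with scaling by the 75th percentile, after cyclic loess or without normalization. In these settings 18.7% to 19.6% of all genes were past it. The count was 3 in the authors' normalized values (16.4% of all genes) and 7 with probes positive and significant on both arrays (24.4%). After the normexp background correction it was 2 (3.60%), with *CISH* higher and *STAT5B* lower. The median log2 LN/HN of the 16 genes was 0.12. *IGFBP1*, a binding protein made mainly in the liver and known to respond to nutrient supply, had a log2 LN/HN of 0.83 from signals of 18.8 (HN pool) and 31.7 (LN pool). This was 1 of its 2 probes, because the other was not well above background on either array, and the value was 0.27 after the normexp background correction. The authors' normalized values used here hold no row for this probe, although it was well above background on both arrays. *IGFALS*, the acid-labile subunit of the circulating IGF complex, had signals of only 6.16 and 7.58 and a log2 LN/HN of 0.49. The other of its 2 probes was not well above background on either array. The log2 LN/HN of *IGFALS* was 0.30 without normalization and 0.26 with scaling by the 75th percentile. It was 0.18 in the authors' normalized values and -0.022 after the normexp background correction.

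In the growth hormone axis, *CISH*, a feedback inhibitor of cytokine receptors, had signals of 1052 (HN pool) and 1425 (LN pool) (log2 LN/HN 0.38). The growth hormone receptor *GHR* had signals of 719 and 925 (0.324) and *STAT5B*, a transcription factor activated by this receptor, had 681 and 553 (-0.34). Each of these rests on 1 probe. *GHR* was barely past the 1.25-fold limit of 0.322, and was short of it after cyclic loess (0.318), the normexp background correction (0.29) and in the authors' normalized values (0.31). *STAT5B* was short of the limit without normalization (-0.30). The feedback inhibitor *SOCS2* had a log2 LN/HN of 0.16, and that of *STAT5A* was -0.09, from probes that disagreed in direction.

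Among the IGF2 mRNA-binding proteins, *IGF2BP2* had signals of 8.11 and 10.2 in the HN and LN pools (log2 LN/HN 0.50), close to the background, and the value was 0.10 after the normexp background correction. *IGF2BP3* had 4 probes, all above 0, and a mean of 0.15, and *IGF2BP1* was not well above background. The 5 receptor adaptors with a value (*SHC1*, *GRB2*, *GRB10*, *GRB14* and *GAB1*) ranged from -0.06 to 0.13 as means of their probes, and none was past 1.25-fold. Probes disagreed in direction in *GRB10* (-0.13 and 0.40), *GRB14* (-0.09 and 0.20) and *SHC1* (-0.13 to 0.01). For *STC1*, an inhibitor of the protease PAPPA, the log2 LN/HN was -0.09, and for the protease *ADAM12* it was 0.11. The accessions of the array matched none of *PAPPA*, *PAPPA2*, *STC2*, *HTRA1*, *INSR*, *IRS1*, *IRS2* and *JAK2*, and *IGFBPL1* was not well above background.

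**Figure D3:**
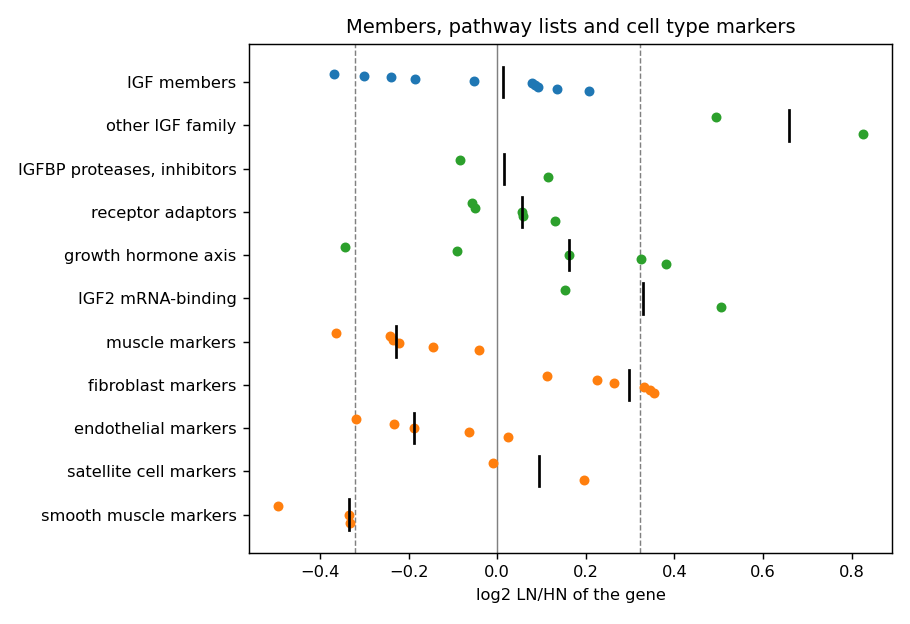
Log2 LN/HN of each gene with a value (points, x axis) in the 10 members (blue), the pathway lists (green) and the marker lists of 5 cell types (orange), with the median of each list as a vertical bar and 1.25-fold as dashed lines. The 9 members measured on both arrays lie between -0.37 and 0.21 (the point of *IGFBP2* is a limit), while the 6 fibroblast markers are all above 0 and the muscle and smooth muscle markers all below.

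Marker genes of several cell types were read beside the members. The markers of skeletal muscle were bright, with *ACTA1* at a mean log2 signal of 17.57 (HN pool) and 17.53 (LN pool). Of the 7 muscle markers 6 had a value, all lower in the LN pool as means of their probes, with a median log2 LN/HN of -0.23 (-0.37 to -0.04). *ACTA1* had 2 of its 4 probes higher, and *DES* 1 of its 4. The 6 markers of fibroblasts and fibro-adipogenic cells were all higher, with a median of 0.30 (0.11 to 0.35) and *COL1A1* and *LUM* at 0.34 and 0.35. For *DCN*, 1 of its 9 probes was lower. Of the 5 endothelial markers, 4 were lower, with a median of -0.19 (-0.32 to 0.02). The exception, *VWF* at 0.02, had 4 of its 5 probes with a value lower (1 of them a limit), the brightest at -0.13, and a dim probe at 0.85. Among the 4 lower markers, *KDR* had 1 of its 2 probes higher. The 3 smooth muscle markers were all lower (-0.49 to -0.33), and the satellite cell markers *MYF5* and *MYOD1* gave 0.20 and -0.01. The 9 members measured on both arrays lay between -0.37 (*IGFBP5*) and 0.21 (*IGF1*). The part of cell composition in these values was not tested, and in a bulk sample fewer cells of a type cannot be told apart from less RNA per cell.

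Of the 5 liver markers 4 had a value, with 2 higher and 2 lower in the LN pool, and both lower ones were past 1.25-fold. *ALB* was at least 2.01-fold lower in the LN pool, with all 4 probes lower, 2 of them dim on the LN array, and mean log2 signals of 4.30 (HN pool) and 3.01 (LN pool). The value of *AFP* was -0.33, from probes that disagreed in direction, and those of *FGB* and *APOA1* were 0.19 and 0.04. The 4 erythroid markers lay between -0.17 and 0.0021. Of the adipocyte markers, *FABP4* had a log2 LN/HN of 0.39 and *PLIN1* of -0.14, and *LEP* was not well above background.

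Of the 9 members measured on both arrays, 8 had the same direction wherever an alternative of the processing moved their value, and *IGF1R* did not. All alternatives use the same arrays, so that a direction kept across them is not a repeated measurement. The 8 include *IGF2*, *IGF2R* and *IGFBP3*, whose probes did not share a direction. Only 5 to 7 of the 11 alternatives moved a given gene by more than 0.001, and the filters on dim probes and on outlier spots were not among them. *IGFBP2* is left out here, because the rule fixes its direction. Across these alternatives the log2 LN/HN ranged from 0.05 to 0.24 for *IGF1*, from 0.03 to 0.09 for *IGF2*, from -0.30 to -0.21 for *IGFBP7* and from 0.06 to 0.11 for *IGFBP6*. It ranged from -0.37 to -0.30 for *IGFBP5*, which was past 1.25-fold in 5 of the 6 alternatives that moved its value.

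**Figure D4:**
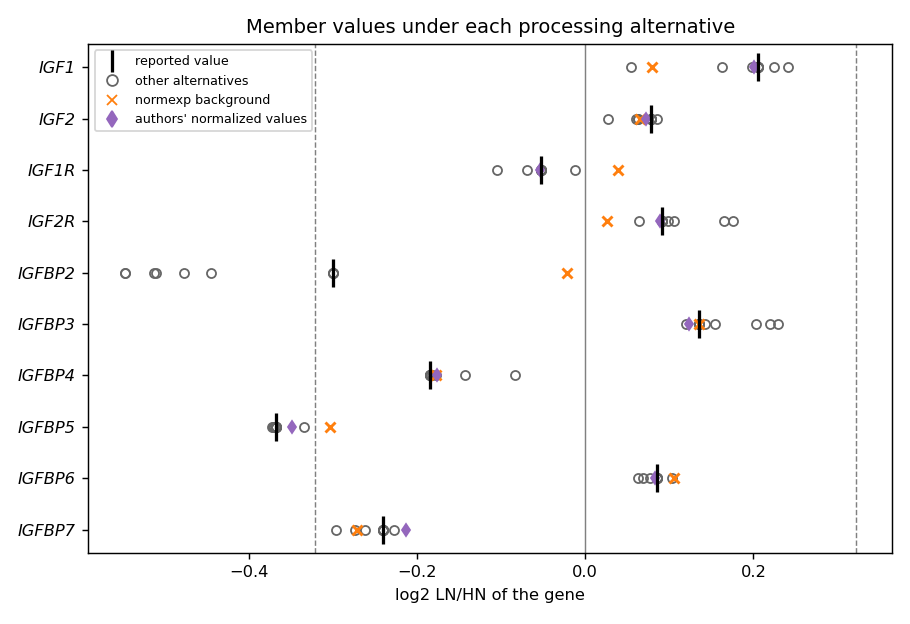
Log2 LN/HN of each member gene (x axis) as reported (vertical tick) and under each processing alternative (circles; crosses for the normexp background correction, diamonds for the authors' normalized values), with 1.25-fold as dashed lines. *IGFBP2*, measured close to the background, spreads from -0.55 to -0.02, and *IGF1R* crosses 0.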

How the data were processed

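For each group, LT muscle RNA of 4 fetuses was combined and hybridized to 1 one-color Agilent array. The authors deposited spot intensities from Feature Extraction 11.0.1.1, per the file headers, which are background-subtracted without normalization between arrays, and log2 values from GeneSpring GX after quantile normalization (30027 probes), whose log2 scale was judged from the values. Here, log2 intensities of 43803 non-control spots were quantile normalized with limma 3.58.1 in R 4.3.3. Outlier-flagged spots (13) were left out, and repeat spots were averaged. A probe counted if 1 array or both marked it well above background. Its value on a dim array was replaced by the minimum of the marked signals (log2 2.27 on HN and 2.82 on LN), or its own if higher, and no fold was given if the bright side did not exceed this. Accessions were matched to symbols through the RefSeq gene table of ARS-UCD2.0 (26742 probes). The array design refers to UMD 3.1, so no coordinates are given, and the files used here hold no probe sequences. Tables and figures were made with Python 3.11.15, pandas 2.3.3 and matplotlib 3.10.9. The steps from probe folds to gene values were tested on simulated data, which covered neither the normalization nor the limits for dim probes. A gene was counted past 1.25-fold or 2-fold, with no p-value. All 10 members, the genes of the lists past 1.25-fold or without a probe, and *INSR*, *GHR*, *PAPPA*, *PAPPA2*, *STC1* and *STC2* were to be named, and other genes printed beside these were chosen after their values were seen. The members and lists were chosen with earlier results of these data known. The alternatives were the 75th percentile, cyclic loess, no normalization, normexp with offset 50, the authors' values, 3 filters on dim probes, 2 summaries of probes, and flagged spots kept.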

Additional observations from a re-analysis of the deposited data

How the results depend on the processing

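Of 12 alternative settings 11 were run, and 1 was added after seeing the data. Matching by a gene name given with the probe was not run, because the scanner files used here hold accessions only, and the normexp correction used the median spot signal. The count of members past 1.25-fold, 1 as reported and lower in the LN pool, was 2, both lower, with the 75th percentile, cyclic loess, no normalization, no filter on dim probes, probes only positive and significant, or the brightest probe, because *IGFBP2* passed the limit as well. Of all genes, 17.9% to 25.6% were past 1.25-fold under these settings. The count of members was 0 after the normexp correction, under which 3.60% of all genes were past it. The count of pathway genes, 6 as reported, was 2 after the normexp correction and 3 in the authors' values, which hold no *IGFBP1* probe, and 7 with probes positive and significant, while *IGFALS* turned to -0.022 after the normexp correction. Over all genes, the normexp correction left 319 higher and 391 lower past 1.25-fold, no filter gave 3251 and 3592, and probes positive and significant gave 2705 and 2623. *IGFBP2* had no value in the authors' table or with probes measured on both arrays only. No replicate could be left out and no paired analysis was possible because each group has 1 array. The number of arrays limits the precision, and genes with signals near the background (*IGFBP2*, *IGFALS*, *IGF2BP2*) were among those whose values moved with the processing.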
